A study of Mus musculus with 16 samples.

Results

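Expression of 8 genes of insulin and insulin-like growth factor (IGF) receptor signalling was examined in mouse pluripotent stem cell lines. The genes were Grb10, its paralogs Grb7 and Grb14, the receptors Insr, Igf1r and Igf2r, and the adaptors Irs1 and Irs2. They were taken by name from a table of 22552 gene names, and all 8 passed the filter on low values that left 13185 genes for testing. RNA-seq was available for 16 lines with 1 library per line, so each line counted as 1 replicate and the spread is that between lines.

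All lines came from 129-M2rtTA mice and from adipocyte progenitor cells (APCs) of a secondary reprogramming system, in which doxycycline switches on the integrated reprogramming factors. AN lines are nuclear transfer embryonic stem cells (ntESCs), made by moving an APC nucleus into an enucleated oocyte. AI lines are induced pluripotent stem cells (iPSCs), made from APCs with doxycycline. The study divided them with the tetraploid complementation assay, in which injected cells must form the whole animal, into fully (F) and partially (P) reprogrammed lines, and this division is not in the sample labels, which give the line name only. AN1, AN9, AN15 and AN20 formed AN F, and AN P was made up of AN2, AN3, AN5, AN6 and AN7. AI3, AI7, AI10 and GS32 formed AI F, whereas AI9, GS4 and GS9 formed AI P. GS4, GS9 and GS32 were lines identified in earlier work, and the label for the source of GS9 and GS32 names GS4, so these lines were assigned by their titles. Lines were sampled at passages 5 to 7, apart from GS32 at passage 13 and GS4 at passage 17. The AN lines were derived on feeder cells, which are mouse embryonic fibroblasts.

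Insulin and the IGFs bind receptor tyrosine kinases, INSR and IGF1R, which phosphorylate the adaptors IRS1 and IRS2 and so switch on PI3K, AKT and mTORC1. GRB10, GRB7 and GRB14 form a family of SH2 domain adaptors that dock on activated receptors, and GRB10 and GRB14 are known as brakes on the insulin and IGF1 receptors. Grb10 is imprinted, with the maternal copy expressed in most tissues and the paternal copy in neurons. Igf2r, the receptor that carries IGF2 to the lysosome for degradation, is also maternally expressed in mice. FPKM values do not separate the parental copies.

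The deposited values are FPKM, fragments per kilobase of transcript scaled to the mapped reads of the library, which correct for transcript length. They hold no read counts, so absolute depth is unknown, but the relative depth read from the smallest values was 0.961 to 1.26 times that of AN1. The lines differed in a trend of expression over transcript length, taken relative to the mean of each gene over the 16 lines. It ran from -0.18 (GS9) to 0.10 (AI3) log2 units per doubling of length. The GC trend, taken in the same way, was -0.21 in AN9, -0.27 in AN20 and -0.23 in GS9 (log2 units per 10 percent GC). In the other lines it was -0.02 to 0.13. Small RNA genes held 28.1% of the summed FPKM in AN9 and 27.9% in AN20, against 15.8% to 23.3% in the other lines. The pluripotency markers were expressed in every line, and their mean log2(FPKM + 1) was 5.88 in AN6 and 6.17 to 7.02 in the others. Markers of fibroblasts were also detected in every line, as 25 of 25 genes with a mean log2(FPKM + 1) of 3.95 in GS9 to 5.74 in GS32. Of 9 markers of the APCs of origin, 3 had a mean under the filter.

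Grb10 lies on chromosome 11 (mm9, chr11:11830511-11938686, reverse strand), spans 108176 bases and has 12 annotated transcripts. Its longest coding transcript holds 5061 bases. The study measured Grb10 by quantitative PCR with the primers shown here because they mark the part of the message that assay reads.

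Forward: tgcaccacttcttgaggatg

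Reverse: accagtgagctccggaaatg

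Both primers matched coding sequence of Grb10 and no other coding transcript of the mm9 annotation. The forward primer matched chr11:11870529-11870548 in exon 3 of the longest transcript, and the reverse primer matched chr11:11867610-11867629 in exon 4. The product is 202 bases long. The forward primer was present in 9 and the reverse primer in 8 annotated coding transcripts, so the assay and the FPKM values both pool transcripts that start at different sites.

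Grb10 had the highest FPKM of its family in 13 of the 16 lines, and its coefficient of variation over the 16 lines, 47.5%, was the largest of the 8 genes. In AN F, its FPKM was 46.1 in AN1, 39.9 in AN9, 36.8 in AN15 and 45.1 in AN20. In AN P, it was 32.9 in AN2, 23.2 in AN3, 33.0 in AN5, 8.89 in AN6 and 18.1 in AN7. Every AN F line was above every AN P line, with AN6 lowest, and the gap between the closest lines ran from 33.0 in AN5 to 36.8 in AN15. In AI F, its FPKM was 54.9 in AI3, 36.9 in AI7, 44.9 in AI10 and 45.6 in GS32. The AI P values were 53.0 in AI9, 8.28 in GS4 and 6.60 in GS9. The AI groups overlapped, because AI9 lay above 3 of the 4 AI F lines while GS4 and GS9 were the lowest of all 16 lines.

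**Figure D1:**
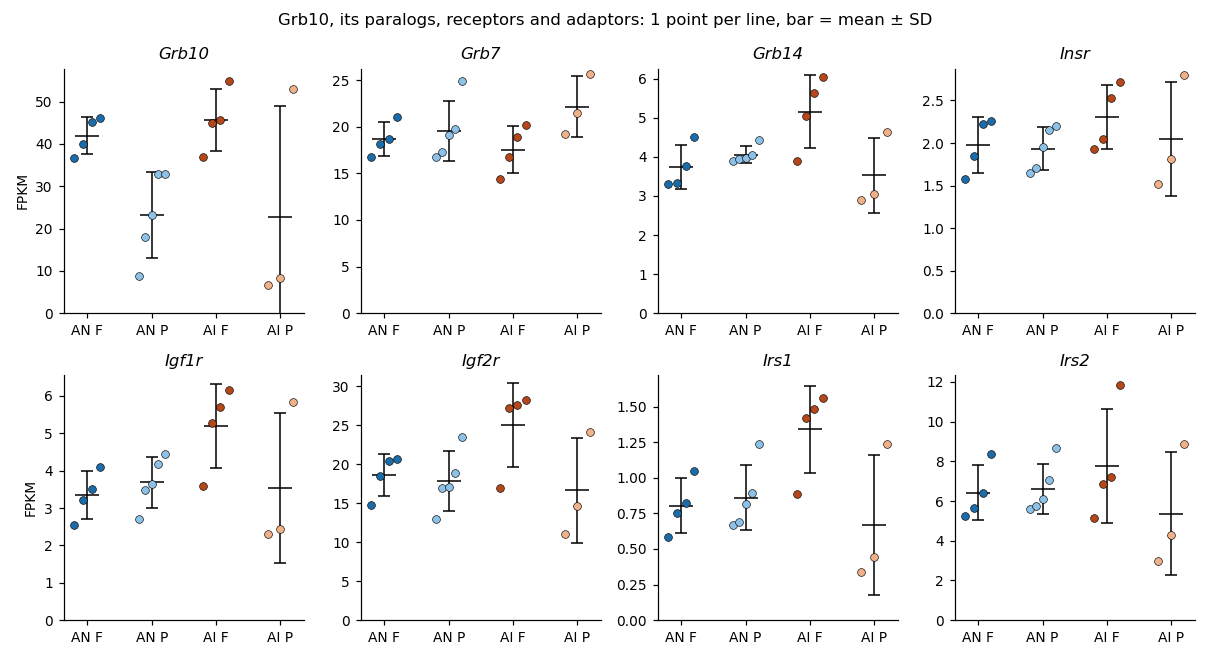
FPKM (linear axis) of the 8 genes in the 4 groups, with 1 point per line and bars for the mean ± SD (the lower Grb10 bar in AI P is cut at 0). For Grb10 the AN F points all lie above the AN P points, while AI9 sits at 53.0 among the AI F lines and GS4 and GS9 at 8.28 and 6.60.

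The first comparison asked which genes differ between fully and partially reprogrammed ntESCs. Grb10 was 0.95 log2 units higher in AN F than in AN P (SE 0.33, a fold of 1.94 on the FPKM + 1 scale), the largest difference of the 8 genes. Its adjusted p over all 13185 genes was 0.636 (limma), so it did not pass the threshold of 0.05. The two-sided exact permutation test gave p = 0.0159, the smallest value that 4 lines against 5 can give. Complete separation with AN F on top occurred in 77 genes, or 0.584% of those tested. From these same libraries, the study reported Grb10 as upregulated in AN F over AN P and in AI F over AI P. It used another test, Cuffdiff, at a q-value under 0.05. The study singled out Grb10 in this way, so neither p given above is independent evidence for it. Without AN6 the difference was 0.66, and with the length and GC trend of each line removed it was 0.91. By quantitative PCR, the study also reported higher Grb10 in fully than in partially reprogrammed AN lines. It reported the same for ntESCs made from tail-tip fibroblasts, which are not among these 16 lines.

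Of the 8 genes, Grb10 alone had an unadjusted p under 0.05 between AN F and AN P, where 6.01% of all genes tested had such a p and no gene had an adjusted p under 0.05 (limma). The other 7 genes differed by -0.11 to 0.07 log2 units, with exact p of 0.190 to 0.873 (two-sided permutation test). Their groups overlapped in every case. For 5 of the 7, Grb7, Insr, Igf2r, Irs1 and Irs2, the direction turned in at least 1 fit that left out a single line. A simulated comparison of the same size recovered 172 of 200 genes changed by 1 log2 unit. The simulation gave each gene its own spread, with noise independent between genes, and changed 200 genes at once. It therefore gives no power for Grb10 alone or for lines that share trends.

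Fibroblast markers stood lower in AN F, with 3 of 25 higher than in AN P, a median difference of -0.25 and summed FPKM of 1815 to 3152 against 2218 to 4047. No fibroblast marker was at 0 in either group. Trophoblast markers were also lower in AN F, with 0 of the 7 tested higher than in AN P (median -0.42, summed FPKM of all 9 from 106 to 308 against 109 to 1196). Extraembryonic endoderm markers were higher in AN F for 1 of 8 (median -0.23), adipocyte progenitor markers for 2 of 6 (-0.12) and pluripotency markers for 12 of 15 (0.11). AN6, the AN line lowest in Grb10, also had the lowest pluripotency marker mean, the highest summed FPKM of 9 trophoblast markers (1196, against 106 to 308 in the other AN lines) and the lowest length trend of the AN lines (-0.11). The part of these values in the Grb10 difference was not tested beyond the fits without AN6 and without the length and GC trends. In bulk RNA, fewer cells of a type and less RNA per cell cannot be told apart.

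The same comparison in iPSCs gave larger and more scattered values. The level of Grb10 in AI F exceeded that of AI P by 1.56 log2 units (SE 0.64, adjusted p = 0.521, limma). The two-sided exact permutation test gave p = 0.229, where 4 lines against 3 can give 0.0571 at the smallest. Without AI9 the difference was 2.46 (SE 0.18, adjusted p = 0.0532, limma), and without GS9 it was 1.04. In its quantitative PCR of the AI lines, the study named AI9 as the exception.

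The derivation of the AI lines moved with this result. Among the newly derived lines, the mean of AI3, AI7 and AI10 minus the value of AI9 was -0.23 log2 units, so Grb10 was higher in the partially reprogrammed line. Among the earlier lines, GS32 minus the mean of GS4 and GS9 was 2.47. Each of these differences has a group of 1 line and no test. When derivation entered the fit as a covariate, the Grb10 difference was 1.04. That fit assumes the same difference in new and earlier lines, whereas the differences above had opposite signs.

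Of the 8 genes, 7 had a mean in AI F above that of AI P, and Grb7 had a lower one. The median difference of the 8 genes was 0.51 log2 units, beside -0.04 over all genes tested. Grb10, Grb14 and Irs1 had an unadjusted p under 0.05, all higher in AI F, where 3.47% of all genes tested had such a p in that direction. Of the 8 genes, none separated the groups, as 1.69% of all genes did with AI F above and 3.19% with AI F below. No gene of the 8, and none of all those tested, had an adjusted p under 0.05 (limma), and 1025 had an unadjusted p under it. A simulated comparison of this size recovered 129 of 200 genes changed by 1 log2 unit and 188 of 200 changed by 2. This simulation had the same limits as that for AN.

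**Figure D2:**
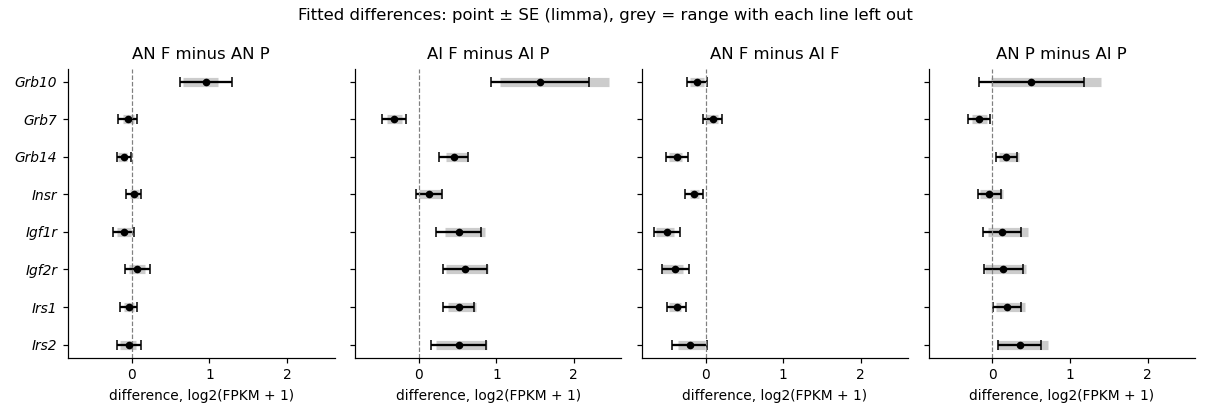
Fitted differences in log2(FPKM + 1) for the 8 genes in 4 comparisons, as points with SE bars (limma), and in grey the range when each line was left out in turn. Grb10 stands at 0.95 in AN F minus AN P and at 1.56 in AI F minus AI P, where its grey range runs from 1.04 to 2.46.

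Among the receptors, Igf2r was the most strongly expressed. In AI F, its FPKM was 27.2 in AI3, 16.9 in AI7, 27.6 in AI10 and 28.2 in GS32. Among AI P lines, it was 24.2 in AI9, 14.7 in GS4 and 11.1 in GS9. AI7 lay apart below the other AI F lines, so the groups overlapped (difference 0.60, SE 0.28, exact permutation p = 0.114). In AN F it ranged from 14.8 to 20.6 and in AN P from 13.0 to 23.5. The longest Igf2r transcript spans 8887 bases, and Airn, a long noncoding RNA known to silence the paternal Igf2r copy, overlaps the gene on the other strand (mm9, chr17:12875272-12962530 for Igf2r). The library kit is not stated to keep strand, so reads from the overlap cannot be told apart. Airn had a mean FPKM of 0.80 against 19.6 for Igf2r.

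Igf1r encodes the receptor for IGF1 and IGF2 that carries the growth signal. Its FPKM was 5.69 in AI3, 3.59 in AI7, 5.29 in AI10 and 6.17 in GS32. For AI P, the values were 5.84 in AI9, 2.43 in GS4 and 2.31 in GS9. As with Igf2r, AI9 lay with the higher AI F lines and AI7 with the lower lines (difference 0.52, SE 0.29, exact permutation p = 0.229). In AN F it ranged from 2.55 to 4.09, and in AN P from 2.70 to 4.43.

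Insr, the insulin receptor, was low and even, with FPKM of 1.52 in GS9 to 2.80 in AI9. Its highest level was 1.84 times its lowest, and the 4 comparisons gave differences of -0.15 to 0.13 log2 units. In every line Igf1r was higher than Insr, with a ratio of 1.34 in GS4 to 2.58 in AI10, and Igf2r was 3.56 to 6.97 times as high as Igf1r. FPKM is per length, so these ratios compare transcripts, though not protein. Insrr, the orphan receptor of the same family, had a mean FPKM of 0.02 and was not tested.

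The adaptors differed in level. Irs1 FPKM was 1.42 in AI3, 0.89 in AI7, 1.56 in AI10 and 1.49 in GS32. The AI P lines gave 1.23 in AI9, 0.34 in GS4 and 0.44 in GS9. AI7 was again the lowest AI F line and AI9 the highest AI P line, and the difference was 0.51 log2 units (SE 0.20, exact permutation p = 0.114). In AN F, Irs1 ranged from 0.59 to 1.05, and in AN P from 0.67 to 1.24. At these levels the pseudocount of 1 shrinks fold changes.

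Irs2 was higher than Irs1 in every line, by 3.46 times in GS32 to 10.2 times in AN15. Its FPKM was 7.21 in AI3, 6.87 in AI7, 11.8 in AI10 and 5.15 in GS32. The AI P lines had 8.85 in AI9, 2.98 in GS4 and 4.29 in GS9. The groups overlapped, with GS32 low for AI F and AI9 high for AI P (difference 0.52, SE 0.36, exact permutation p = 0.343).

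The paralogs did not follow Grb10 alike. Grb14, a tissue-restricted inhibitor of the insulin receptor, had an FPKM of 5.64 in AI3, 3.90 in AI7, 5.04 in AI10 and 6.04 in GS32. The AI P values were 4.64 in AI9, 3.05 in GS4 and 2.90 in GS9. The difference was 0.45 log2 units (SE 0.19, exact permutation p = 0.114), with AI7 below AI9. In AN it was even, from 3.30 to 4.51 in all 9 lines.

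Grb7, an adaptor best known beside ERBB2, went the other way in AI. Its FPKM was 18.9 in AI3, 20.2 in AI7, 14.4 in AI10 and 16.8 in GS32. Among AI P lines, it was 19.2 in AI9, 21.5 in GS4 and 25.7 in GS9. GS9 was the highest of all 16 lines and AI10 the lowest, and the groups overlapped (difference -0.32, SE 0.15, exact permutation p = 0.114). Grb7 had the smallest coefficient of variation of the 8 genes, 15.3% over 16 lines.

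As a share of the summed FPKM of the 3 family genes, Grb10 made up 62.5% to 69.2% in AN F and 27.8% to 58.2% in AN P. In AI F it made up 60.6% to 69.8%. For AI P, the values were 69.0% in AI9, 25.2% in GS4 and 18.8% in GS9. Grb7 made up the largest share in AN6, GS4 and GS9, at 59.8%, 65.5% and 73.0%. Grb14 held 5.07% to 12.4% throughout.

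**Figure D3:**
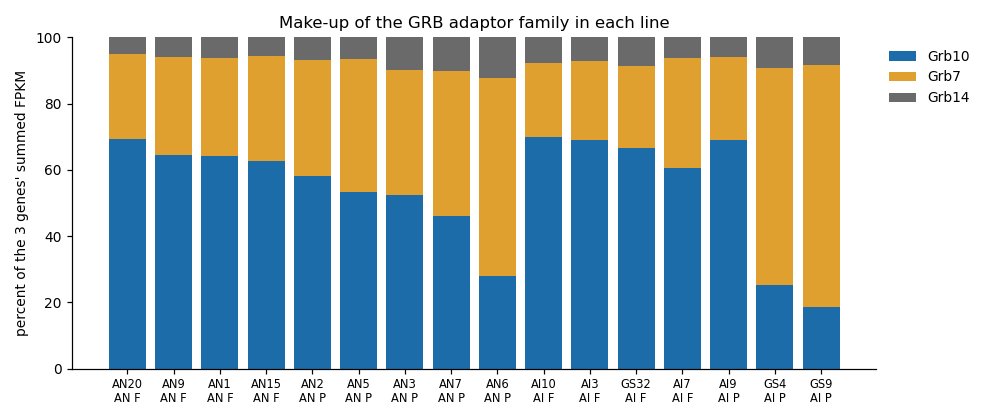
Share of the summed FPKM of Grb10, Grb7 and Grb14 taken by each gene (percent, stacked bars) in the 16 lines, ordered by group and within a group by the Grb10 share. Grb10 makes up 60.6% or more in all AN F and AI F lines and in AI9, and 18.8% to 27.8% in AN6, GS4 and GS9.

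The fibroblast markers moved with the AI differences. All 25 were higher in AI F lines, with a median of 0.91 log2 units, summed FPKM of 2279 to 4189 against 1225 to 3554, and no marker at 0. GS9 and GS4 had the lowest marker means of all lines, 3.95 and 4.31, while AI9 had 5.34. The length trend was also lowest in GS9. Of the 15 pluripotency markers, 3 were higher in AI F (median -0.41). Extraembryonic endoderm markers were higher in AI F for 7 of 8 (median 0.41), trophoblast markers for 6 of 7 (0.13) and adipocyte progenitor markers for 4 of 6 (0.18). The part of these values in the differences was not tested, and with length and GC trend removed the Grb10 difference was 1.51.

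Across lines, 4 of the genes and the fibroblast markers varied together. These correlations describe 16 libraries that share kit and pipeline and that differ in depth and length trend, and they carry no test. The Pearson r with the fibroblast marker mean was 0.89 for Grb14 (rho 0.90), 0.88 for Irs1 (rho 0.86), 0.87 for Igf2r (rho 0.86) and 0.82 for Igf1r (rho 0.81). It was 0.59 for Grb10 (rho 0.49), and 0.13 without GS4 and GS9, the lines farthest from its median. So the relation of Grb10 over the 16 lines rested on those lines. For Grb14, r stayed at 0.89 without AI3 and GS32, its own 2 farthest lines, but GS4 and GS9 were kept there. Within the 9 AN lines, r was -0.27 for Grb10, 0.75 for Grb14, 0.77 for Irs1, 0.60 for Igf2r and 0.50 for Igf1r. Within the 7 AI lines, it was 0.92 for Grb10 and 0.96 to 0.99 for the other 4 genes.

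Grb10 itself varied more with the length trend of the lines (r = 0.86, rho = 0.82, and 0.81 without GS4 and GS9). Within the 9 AN lines this r was 0.77, and within the 7 AI lines 0.91. Igf2r gave 0.91 with the length trend (rho 0.92), and Insr gave 0.81 (rho 0.86). The longest coding transcripts of the 3 genes hold 5061, 8887 and 9355 bases. For the other genes, r with the length trend was 0.76 for Igf1r (4181 bases) and 0.73 for Irs1 (9144). Grb14 (1986 bases) had 0.69, Irs2 (4024) 0.42 and Grb7 (2397) -0.55, so the order of r was not that of length.

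**Figure D4:**
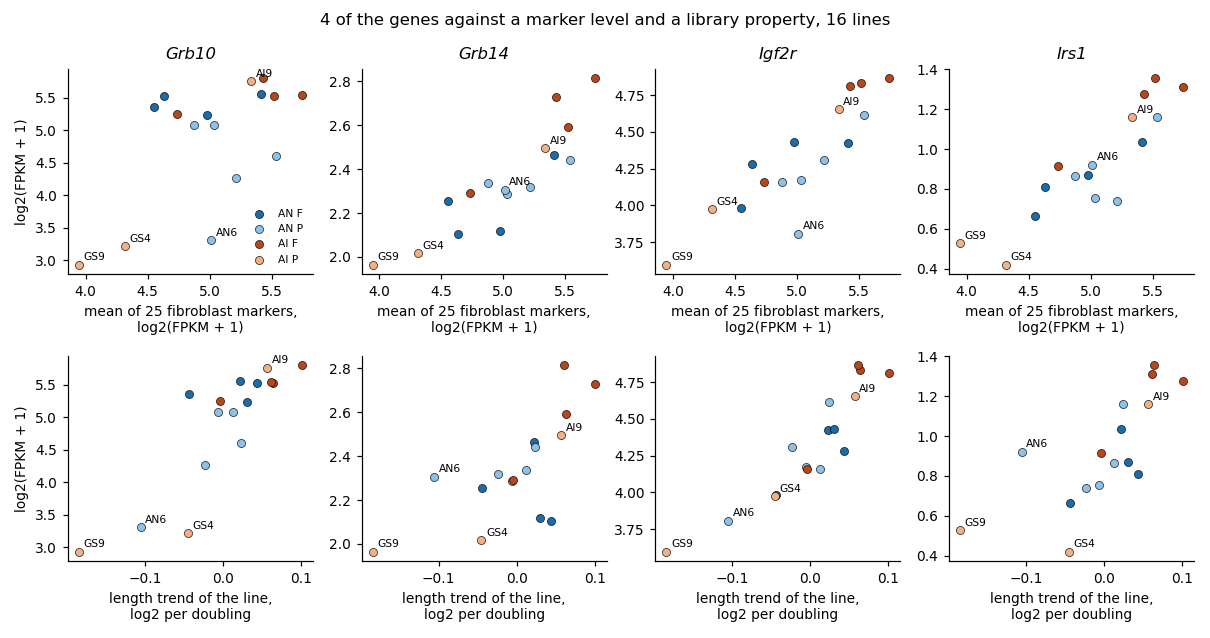
log2(FPKM + 1) of Grb10, Grb14, Igf2r and Irs1 (vertical axes) in 16 lines against the mean log2(FPKM + 1) of 25 fibroblast markers (upper row) and against the length trend of the line in log2 units per doubling of transcript length (lower row), coloured by group. GS9 and GS4 lie at the low end of the marker axis for all 4 genes, whereas AN6 is low for Grb10 at a marker mean of 5.01.

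Among the 8 genes, Igf1r and Irs1 were the closest pair (r = 0.93, rho = 0.92 over 16 lines, 0.93 without AI9 and GS32, 0.78 within AN and 0.97 within AI). Grb10 was closest to Igf2r (r = 0.74, rho = 0.71, and 0.59 without GS4 and GS9). Within AN, the r of Grb10 with the other 7 genes ran from -0.54 (Irs2) to 0.42 (Igf2r). Within AI, it ran from 0.78 (Irs2) to 0.94 (Igf1r) for 6 of them and was -0.76 for Grb7. The difference between AN and AI in these values was not tested. GS4 and GS9 are AI lines, and without them r over the remaining lines was closer to that of no relation. It was 0.43 for Igf1r (0.65 with them), 0.35 for Irs1 (0.65) and 0.32 for Grb14 (0.61). For Insr it was 0.49 (0.60), for Irs2 -0.06 (0.46) and for Grb7 -0.04 (-0.44).

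Of the genes outside the 8, those whose log2(FPKM + 1) followed Grb10 most closely over 16 lines were Clasp1, a microtubule-binding protein (r = 0.91), Kbtbd2, a ubiquitin ligase adaptor (0.91), Dcbld2, a membrane receptor (0.90), Rapgef2, an activator of RAP1 (0.89), Edem1, a lectin of protein quality control (0.88), and Fam102b (0.86). Their r after the group means were subtracted was 0.83 to 0.89. The most opposite genes were Mettl21d (-0.92), Stxbp2 (-0.91), Fam32a (-0.90) and Cops6 (-0.90). The 6 like genes have transcripts of 3868 to 7797 bases and the 4 opposite genes of 1027 to 2908. The median over the 100 genes with the highest r was 6567 bases, beside 2979 over all genes compared. With the length and GC trend of each line removed, 5 of the 6 were still among the 100 most like Grb10, and Clasp1 was not.

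The third comparison set fully reprogrammed AN lines against fully reprogrammed AI lines. The Grb10 difference was smaller than its standard error (-0.11 log2 units, SE 0.13, exact permutation p = 0.571). Grb14 (-0.37), Igf1r (-0.50) and Irs1 (-0.37) had lower means in AN F than in AI F, each with an exact permutation p of 0.0571, where 4 lines against 4 can give 0.0286. Each had an unadjusted p under 0.05, in a direction in which 4.13% of all genes tested had one, and an adjusted p of 0.496 (limma). Over all genes, 0.00758% had an adjusted p under 0.05. The groups overlapped for each of the 8 genes, with AI7 within the AN F range, while 2.05% of all genes separated with AN F above and 1.11% with AN F below. Of the 25 fibroblast markers, 3 were higher in AN F than in AI F (median -0.52, summed FPKM 1815 to 3152 against 2279 to 4189), as were 15 of 15 pluripotency markers (median 0.16), 1 of 8 extraembryonic endoderm markers (-0.28), 2 of 7 trophoblast markers (-0.07) and 2 of 6 adipocyte progenitor markers (-0.34), and the part of these lists in the differences was not tested.

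The fourth comparison set partially reprogrammed AN lines against partially reprogrammed AI lines. None of the 8 genes had an unadjusted p under 0.05 (limma), where 5.69% of all genes tested did and 0.0152% had an adjusted p under 0.05. None separated the groups, as 1.68% of all genes did with AN P above and 1.65% with AN P below. Grb10 had the largest difference, 0.50 log2 units higher in AN P with an SE of 0.68 and an exact permutation p of 0.536, where 5 lines against 3 can give 0.0357. Without AI9 it was 1.40, and without GS9 it was -0.02. Of the fibroblast markers, 24 of 25 were higher in AN P (median 0.71), as were 1 of 15 pluripotency markers (-0.27), 7 of 8 extraembryonic endoderm markers (0.24), 6 of 7 trophoblast markers (0.34) and 3 of 6 adipocyte progenitor markers (-0.05). Their part in the Grb10 difference was not tested.

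In order of mean log2(FPKM + 1), Grb10 ran from AI F (5.53) and AN F (5.42) to AN P (4.47) and AI P (3.96). Of the neighbours in this order, only AN F and AN P differed by more than their pooled SD. For Grb14, Igf1r and Irs1 the order was AI F, AN P, AN F and AI P, and for these genes the step from AI F to AN P alone exceeded the pooled SD. For Igf2r it was the step from AI F to AN F (4.67 against 4.28). No neighbouring groups of Grb7, Insr or Irs2 differed by more than their pooled SD.

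The effect of full against partial reprogramming was compared between AI and AN in a single fit. For Grb10, the effect in AI minus that in AN was 0.61 log2 units (SE 0.71, adjusted p = 0.650, limma). For Grb14 it was 0.55 and for Irs1 0.56, both with an unadjusted p under 0.05 (0.0119 and 0.0272), as for 16.6% of all genes tested, and an adjusted p of 0.290 (limma). Without AI9, 4.94% of all genes had an adjusted p under 0.05, and so had Grb14 (0.0411), Irs1 (0.0401) and Igf1r (0.0427), but not Grb10 (0.0678, limma). These calls depended on leaving out AI9, and leaving out any other line gave at most 1 gene. Without AI9, AI P holds only GS4 and GS9, both from earlier work, while most AI F lines are newly derived.

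The wider pathway was followed through 66 further genes, of which 58 passed the filter. Between AN F and AN P, 0 of the 58 had an unadjusted p under 0.05 and a higher level in AN F, and 3 had a lower one, beside 3.02% and 2.99% of all genes tested. Between AI F and AI P the counts were 5 higher and 1 lower, beside 3.47% and 4.30%. None had an adjusted p under 0.05 in any comparison (limma). The median difference of the 58 genes was -0.01 in AN and 0.06 in AI, against -0.01 and -0.04 over all genes.

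Among the ligands, Igf2 was abundant, with a mean FPKM of 100.6, while Igf1 was under the filter and Ins2 was listed at 0 in every line. Igf2 FPKM was 76.7 to 193.8 in AI F and 31.6 to 121.2 in AI P (difference 1.18 log2 units, SE 0.49, adjusted p = 0.521, limma). Its r with the fibroblast marker mean over 16 lines was 0.95 (rho 0.99). Igf2 is itself imprinted and expressed from the paternal copy.

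The binding proteins hold IGFs outside the cell. Igfbp2 was the highest of them, with a mean FPKM of 250.02, and its AI F lines (191.2 to 262.1) all lay below its AI P lines (283.8 to 356.9), with a difference of -0.50 and an exact permutation p of 0.0571. Separation in that direction was seen in 3.19% of all genes tested. Igfbp6 FPKM was 1.52 to 3.28 in AN F and 3.35 to 4.55 in AN P, without overlap (-0.59, SE 0.16, exact permutation p = 0.0159), as in 0.713% of all genes. Between AN P and AI P, Igfbp6 was 0.69 log2 units higher in AN P (exact permutation p = 0.0714). Igfbp5 was 0.99 log2 units higher in AI F relative to AI P, and its groups overlapped (SE 0.32, exact permutation p = 0.114).

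Downstream, Akt1, the kinase that relays PI3K signals, had a mean FPKM of 39.2 in the AN F lines and 47.4 in the AN P lines. Its means were 48.8 for AI F and 33.8 for AI P. It was 0.28 log2 units lower in AN F than in AN P (SE 0.12) and 0.54 higher in AI F relative to AI P (SE 0.18), with adjusted p of 0.636 and 0.521 (limma). Between AN P and AI P it was 0.50 higher in AN P (adjusted p = 0.719, limma). Akt1s1, an AKT substrate that restrains mTORC1, was 0.29 lower in AN F than in AN P (SE 0.10, exact permutation p = 0.0476). It was also 0.29 higher in AN P than in AI P, without overlap (exact permutation p = 0.0357), as in 1.68% of all genes.

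Crk, an SH2 adaptor, had a mean FPKM of 53.1, Eif4ebp1, the translation repressor under mTORC1, 201.4, and Gsk3a, a kinase inhibited by AKT, 54.7. Nedd4, a ubiquitin ligase known to bind GRB10, had a mean FPKM of 299.7 and differed by -0.17 to 0.17 log2 units in the 4 comparisons. Between AN F and AI F, the smallest p of these further pathway genes belonged to Ptpn11 (-0.27), Cblb (-0.33) and Ptpn2 (0.38), each with an adjusted p of 0.496 (limma).

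**Figure D5:**
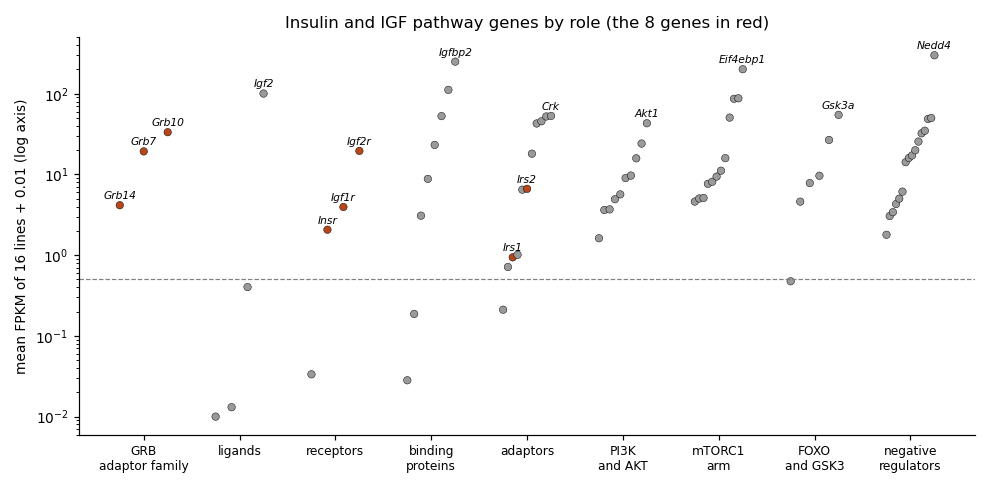
Mean FPKM over 16 lines plus 0.01 (log axis) of the pathway genes by role, with the 8 genes in red, the highest gene of each role named and the filter on mean FPKM dashed. The GRB adaptor family and Igf2r lie between 4.15 and 33.4, below Igf2, Igfbp2, Eif4ebp1 and Nedd4, which are at 100.6 or more.

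Genes near Grb10 on chromosome 11 were followed because Grb10 is imprinted. Ddc lies 32.5 kb, Fignl1 122 kb and Cobl 198 kb from Grb10, and these 3 passed the filter, whereas Ikzf1, Zpbp and Vwc2 did not. Between AN F and AN P, Cobl differed by 0.48 log2 units (SE 0.31), Fignl1 by 0.17 (SE 0.13) and Ddc by 0.03 (SE 0.19). Between AI F and AI P the values were -0.15, -0.32 and -0.40, so all 3 had lower means in AI F while that of Grb10 was higher. None had an adjusted p under 0.05 in either comparison (limma).

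Around Igf2r, 3 genes passed the filter. Airn was 0.21 log2 units lower in AN F than in AN P (SE 0.13) and 0.35 higher in AI F relative to AI P (SE 0.18), and 0.46 higher in AN P than in AI P (SE 0.16, adjusted p = 0.719, limma). Acat2 and Tcp1 differed by -0.22 to 0.17 in the 4 comparisons.

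The sequences before the start sites are shown for Grb10, which has 2 RefSeq starts, and for Igf2r and Irs1. Igf2r and Irs1 varied together (r = 0.87, rho = 0.81 over 16 lines, 0.82 without GS9 and GS32), though other pairs were closer. Each holds the 250 bases before a start in RefSeq GRCm38.p6, read on the strand of the gene, with every CACGTG (the E-box bound by MYC, MAX, USF and TFE proteins) in capitals. The Grb10 windows are chr11:12037421-12037670 and chr11:12027972-12028221, that of Igf2r is chr17:12769707-12769956 and that of Irs1 is chr1:82291440-82291689, all on the reverse strand.

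Grb10 upstream start: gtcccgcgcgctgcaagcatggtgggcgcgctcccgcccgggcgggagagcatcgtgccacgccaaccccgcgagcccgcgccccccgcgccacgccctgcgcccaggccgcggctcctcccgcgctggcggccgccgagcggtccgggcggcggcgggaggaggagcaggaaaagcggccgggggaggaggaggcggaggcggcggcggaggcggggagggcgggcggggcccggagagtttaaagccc

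Grb10 downstream start: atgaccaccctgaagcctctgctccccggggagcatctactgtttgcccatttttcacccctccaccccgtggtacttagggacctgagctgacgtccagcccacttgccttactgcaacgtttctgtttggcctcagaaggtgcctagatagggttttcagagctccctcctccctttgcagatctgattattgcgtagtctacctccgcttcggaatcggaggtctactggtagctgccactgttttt

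Igf2r: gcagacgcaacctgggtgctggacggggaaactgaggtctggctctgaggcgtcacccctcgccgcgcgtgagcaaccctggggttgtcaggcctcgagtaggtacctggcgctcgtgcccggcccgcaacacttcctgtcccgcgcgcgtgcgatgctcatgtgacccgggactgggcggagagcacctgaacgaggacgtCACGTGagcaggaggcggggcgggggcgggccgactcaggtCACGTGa

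Irs1: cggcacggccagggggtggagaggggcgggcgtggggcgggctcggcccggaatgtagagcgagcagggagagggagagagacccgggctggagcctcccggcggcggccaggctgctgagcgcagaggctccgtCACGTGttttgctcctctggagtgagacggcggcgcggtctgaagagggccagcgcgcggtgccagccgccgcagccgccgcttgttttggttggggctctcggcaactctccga

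The upstream Grb10 window holds 40 CG dinucleotides, more than 98.7% of the 32851 promoter windows, and the downstream window holds 8, where the median is 6 over all windows and 16 over those of tested genes. Igf2r holds 27 and Irs1 28. CACGTG, which reads the same on both strands, was chosen after the sequences had been seen. It begins 48 and 7 bases before the start of Igf2r, 115 before that of Irs1 and 44 before that of Irs2, and it is not in the windows of Grb10, Grb14 or Igf1r. It occurs in 6.02% of all windows of this length and in 8.52% of those of tested genes, and 2 or more copies occur in 0.429%. The match is a description of these letters and was not tested for any link with expression. Irs1 was closer to Igf1r (r = 0.93) and Grb14 (r = 0.90), which lack CACGTG, than to Igf2r. Irs2, which holds it, had an r of 0.49 with Igf2r and 0.71 with Irs1. Of the 8 genes, 6 had a window in the table.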

How the data were processed

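Total RNA of 16 lines was sequenced as single reads of 50 bases. Per the labels and the study's methods, the authors mapped reads to mm9 with TopHat2 2.1.0 and computed the deposited FPKM values with Cufflinks 2.2.1, and HTSeq is also named in their notes. No counts were used here. FPKM per gene were transformed to log2(FPKM + 1), and the 13185 genes whose mean over the 16 lines was 0.5 FPKM or more were tested. Each comparison was fitted on its own lines with limma 3.58.1 (R 4.3.3, trend on mean expression, Benjamini-Hochberg adjustment over all genes), and the effect in AI minus that in AN on all 16 lines. limma was tested on simulated data with 200 changed genes and noise independent between genes. Single genes were also compared by exact permutation tests of mean log2(FPKM + 1) (scipy 1.17.1), two-sided as double the smaller tail, over 32 tests with unadjusted p. A pooled SD compared neighbouring groups.

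The 8 genes and all lists were chosen with earlier results of these data known. Text outside the 8 genes names, per comparison, the 3 pathway genes with the smallest p, the highest gene of each role, genes at 0 in every line, the genes of the Grb10 and Igf2r neighbourhoods (those under the filter near Igf2r are not reported here), and the 6 most and 4 least like Grb10 by Pearson r. The length trend is the slope of each line's log2(FPKM + 1) against log2 transcript length, with GC content in the same fit. Names of 94.5% of tested genes had a transcript length in the mm9 annotation. Overlapping genes are annotated for Insr, Irs1 and Irs2 as well as Igf2r, and their reads could be shared. With 1 library per line, the spread between lines includes any technical spread. Alternatives were another pseudocount, other filters, quantile and median-ratio scaling, a shared fit, no trend, passage or derivation as terms, and leaving out each line.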

Additional observations from a re-analysis of the deposited data

Results flagged for a closer look

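In AI7, an AI F line, the FPKM of Igf2r was 16.9, while the other 3 AI F lines had 27.2 to 28.2. The gap was wide for the range of a group of 4. Of 24 groups of 4 or 5 lines examined over the 8 genes, this was the only 1 found, and chance gives about 1.2 (1 in 20). AI7 also had the lowest fibroblast marker mean of the AI F lines (4.73) and a length trend of 0.00, against 0.06 to 0.10 in the other 3. The part of these values was not tested.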

How the results depend on the processing

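No paired analysis was possible because the lines share no replicate numbers. Numbers of genes with an adjusted p under 0.05 (limma) were 0 for AN F against AN P, 0 for AI F against AI P, 1 for AN F against AI F, 2 for AN P against AI P and 0 for the effect in AI minus that in AN. With unadjusted p under 0.05 they were 792, 1025, 1245, 750 and 2194. Leaving out each line gave 0 to 1, 0 to 5, 1 to 3, 1 to 19 and 0 to 651, where the highest numbers came without GS9 (5), AI10 (3) and AI9 (19 and 651). For AN F against AI F, the fit of all 16 lines gave 0, passage as a term 2 and the length and GC trend removed 0. For AN P against AI P, these gave 0, 1 and 0. Within newly derived lines, the AI difference of Grb10 was -0.23, and within earlier lines 2.47, alternatives chosen after seeing the data, as were the length and GC trend and the second definition of the exact p. Of 552 alternative differences of the 8 genes in the 4 comparisons, 25 had another sign, and the smallest adjusted p was 0.0532. Grb10 in AN stayed between 0.66 and 1.11. All 96 alternative exact p stayed on their side of 0.05, and that of Grb10 in AN, from the absolute difference, was 0.0317. The number of lines and unknown depth limit the precision: AI P has 3 lines, and their spread in Grb10 exceeds its mean.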
